A study of Glycine max with 24 samples.

Results

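The response of GmNFYA overexpressor roots to salt was read from 6 of the 24 root and leaf libraries of a soybean (Glycine max) series, 3 from NaCl-treated and 3 from untreated roots of the transgenic line. The libraries were taken by their labels alone. The treated roots had been in 150 mM NaCl for 6 h, and the untreated roots carry the label 0 h. Both groups come from the same transgenic line, whose column names begin with N3, so that the transgene is present on both sides of the comparison. The labels do not say which promoter drives it, how many transformation events the line stands for, how old the plants were or whether roots were pooled. The comparison groups are 3 NaCl-treated and 3 untreated root libraries of the wild-type cultivar Jack, and 3 NaCl-treated and 3 untreated leaf libraries of the GmNFYA line. The labels name no untreated root at 6 h, so NaCl and the time since the start cannot be told apart. Nor do they say that replicates came from separate plants, so p-values measure the spread between these libraries, which may be technical.

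NF-YA proteins are the DNA-contacting subunits of the NF-Y transcription factor, which binds the CCAAT sequence in promoters, and several plant NF-YA genes are known to respond to drought, salt and abscisic acid. Roots meet salt first: sodium and chloride enter there, water uptake drops, and growth, ion transport and the synthesis of protective solutes are adjusted through abscisic acid and calcium signals. None of the 57105 gene IDs of the root table was paired with a name or description in the sources used here. Genes are therefore given by ID, without function and without sequence, and the chromosome is the one the ID states.

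Sequencing depth did not differ beyond the spread of the libraries. Reads assigned to genes numbered 20702731, 20159072 and 20825981 in the NaCl libraries, against 20945686, 21463213 and 19153157 in the untreated libraries. Of all counted reads, 5.72 ± 0.244% were not aligned in NaCl libraries and 6.88 ± 0.431% in untreated libraries (SD, n = 3 each), and the groups did not overlap. That share had p = 0.1 in an exact two-sided permutation test, the smallest p that 3 against 3 libraries allow. Multiply aligned reads made up 5.48 ± 0.116% with NaCl and 5.53 ± 0.343% without, and these ranges overlapped. The 20 IDs with most reads in untreated GmNFYA leaves held 1.12 to 1.26% of gene reads in NaCl roots and 1.002 to 1.05% in untreated roots, against 5.24 to 6.61% in those leaves. Without names, defining root markers could not be looked up.

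More than every second ID tested differed between GmNFYA roots after 6 h in NaCl and untreated roots at 0 h, and a sizeable minority by more than 2-fold. Of 36390 IDs tested, 10410 rose (28.6%) and 10230 fell (28.1%) at a Benjamini-Hochberg adjusted p under 0.05 in edgeR's quasi-likelihood test, 56.7% in all. Many of these changes were small: the median log2 fold change was 0.86 among IDs that rose and -0.91 among those that fell, and over all tested IDs it was 0.00. Tested against a 2-fold minimum with edgeR's glmTreat, 3053 IDs rose (8.39%) and 2887 fell (7.93%), 16.3% in all. The largest changes leaned upward. Among IDs called in the first test, changes of 8-fold or more comprised 922 rises against 612 falls. At 32-fold or more there were 238 rises against 107 falls. In 23564 IDs (64.8%) the NaCl and untreated libraries did not overlap in level, and 20144 of these were called. In bulk roots, fewer cells of a type and less RNA per cell cannot be told apart.

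The even balance of rises and falls depended on the scaling of libraries. TMM, the scaling used here, sets the bulk of IDs to no change on average. Scaled to total gene reads instead, the median log2 change of all IDs moved to -0.13, and the split became 8363 that rose and 12676 that fell. Beyond 2-fold it became 2686 rises and 3305 falls.

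At the other end, many IDs were held close to their untreated level. For 11125 IDs (30.6%) the 95% interval of the fold change lay within 1.5-fold in both directions, and 2549 of these were nonetheless called as small changes. A further 7174 IDs were neither called nor held within those limits. The ID with the most reads in both groups, Glyma.09G092700, was among the steady ones. It had 5900, 5370 and 5150 CPM (reads per fixed library size, scaled by TMM) with NaCl, against 6502, 4995 and 7035 CPM without. The groups overlapped, and the log2 fold change was -0.17 ± 0.14 (SE, adjusted p = 0.30). Glyma.14G061500 was next, at 3550, 3778 and 3388 CPM with NaCl and 3790, 3574 and 4136 CPM without (log2 -0.10 ± 0.11, adjusted p = 0.47). Its groups also overlapped.

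How reads were spread over the genes shifted far more between treatments than between replicates. Between any NaCl and any untreated library of GmNFYA roots, 22.8 to 24.5% of gene reads would have to move to another ID to make the libraries alike. Between replicates that share was 4.67 to 5.76% with NaCl and 4.96 to 6.52% without. The gain was somewhat concentrated, with 463 IDs giving 50% of it, against 907 IDs for 50% of the loss. Of the 100 IDs with most reads under NaCl, 45 were also among the top 100 of untreated roots. In the NaCl top 100, 64 IDs had risen, 48 of them beyond 2-fold, and in the untreated top 100, 56 had fallen, 31 of them beyond 2-fold. Membership in such a top list is itself set by the level in that group.

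Changes beyond 2-fold tilted from falls to rises with read level. CPM is not corrected for gene length, so these classes order IDs by reads and not by transcripts. Of the 3382 IDs with a mean log2 CPM of up to 0, 296 rose and 386 fell beyond 2-fold. Between 0 and 2 the counts were 575 and 885, the strongest lean to falls. Between 4 and 6 they were 863 and 462. Above 8, 96 of 367 IDs rose (26.2%) and 39 fell (10.6%). In that top class 77.4% of IDs were called in the plain test, against 38.9% in the lowest class, where counts are small and precision is lower.

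**Figure D1:**
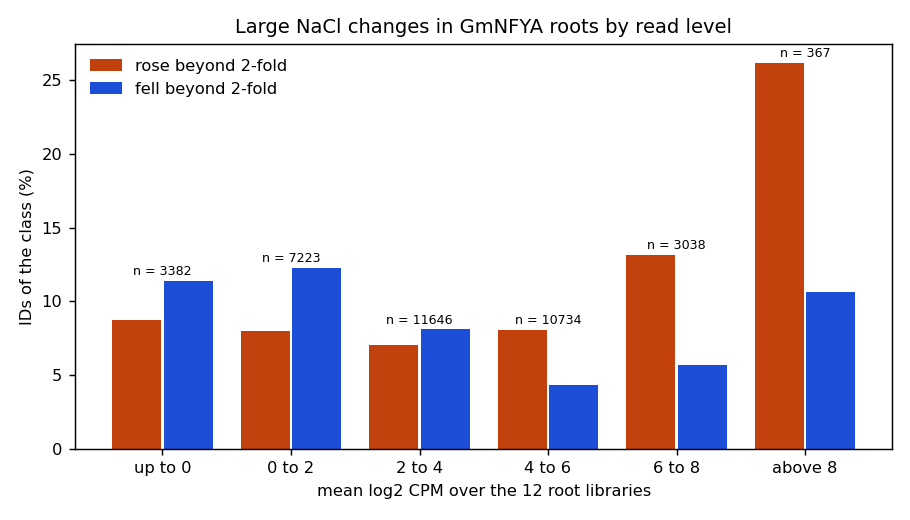
Share of IDs (%) that rose or fell beyond 2-fold with NaCl in GmNFYA roots (glmTreat, adjusted p under 0.05), in 6 classes of mean log2 CPM over the 12 root libraries, with the number of IDs above each pair of bars. Falls outnumber rises in the 3 lowest classes and rises outnumber falls in the 3 highest.

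The 2 largest gains in reads were those of Glyma.13G270100 and Glyma.08G341400. Glyma.13G270100 had 3132, 2743 and 3013 CPM in the 3 NaCl libraries, against 152, 175 and 208 CPM in the untreated libraries. It was 16.6-fold higher with NaCl (log2 4.05 ± 0.13, adjusted p = 1.74e-11 against the 2-fold minimum). All NaCl libraries lay far above all untreated ones. The same ID had 3837 ± 324 CPM in NaCl-treated and 461 ± 5.39 CPM in untreated Jack roots, an 8.32-fold rise, and the difference between the genotypes passed the test (log2 0.998 ± 0.17, adjusted p = 0.00157). In GmNFYA leaves it stayed near 10 CPM, at 11.5 ± 1.86 CPM with NaCl and 10.1 ± 0.646 CPM without.

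Glyma.08G341400 had 2559, 2314 and 2722 CPM with NaCl and 406, 446 and 496 CPM without, a 5.63-fold rise (log2 2.49 ± 0.12, adjusted p = 1.18e-08 against the 2-fold minimum). The groups were well apart. In Jack roots it had 3225 ± 201 CPM with NaCl and 1620 ± 202 CPM without, a 1.99-fold rise. Its untreated level was thus lower in GmNFYA than in Jack roots, and the NaCl change was larger by log2 1.501 ± 0.17 (adjusted p = 5.71e-05). In GmNFYA leaves it was close to 0, with 0.0159 ± 0.0276 CPM under NaCl and 0.322 ± 0.23 CPM without.

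The 2 largest losses were those of Glyma.08G230500 and Glyma.12G217400. Glyma.08G230500 had 361, 280 and 311 CPM with NaCl, against 2104, 1899 and 1942 CPM without. It fell 6.24-fold (log2 -2.64 ± 0.13, adjusted p = 4.97e-09 against the 2-fold minimum), with no overlap. Its fall in Jack roots was 3.2-fold, to 604 ± 78.3 CPM against 1934 ± 108 CPM untreated, and the difference passed the test (log2 -0.96 ± 0.17, adjusted p = 0.00196). In GmNFYA leaves, at far lower levels, it also fell, with 0.0657 ± 0.0261 CPM under NaCl and 1.47 ± 0.725 CPM without (adjusted p = 0.000173), and no difference between the tissues was called (adjusted p = 0.056). Glyma.12G217400 had 393, 243 and 334 CPM with NaCl and 2236, 1725 and 1556 CPM without, a 5.69-fold fall (log2 -2.51 ± 0.19, adjusted p = 3.02e-06 against the 2-fold minimum). The untreated libraries varied more here than for the other 3 IDs, yet none came near the NaCl libraries. Its fall in Jack roots was 2.69-fold, and the fall was larger in GmNFYA (log2 -1.08 ± 0.26, adjusted p = 0.0188). In GmNFYA leaves it was at 964 ± 121 CPM with NaCl and 958 ± 83.7 CPM without. On the log2 scale each of these 4 IDs changed more in GmNFYA than in Jack roots, having been picked for its change in GmNFYA. In CPM this did not hold for Glyma.13G270100, whose NaCl and untreated means were 2963 and 178 CPM in GmNFYA, and 3837 and 461 CPM in Jack.

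**Figure D2:**
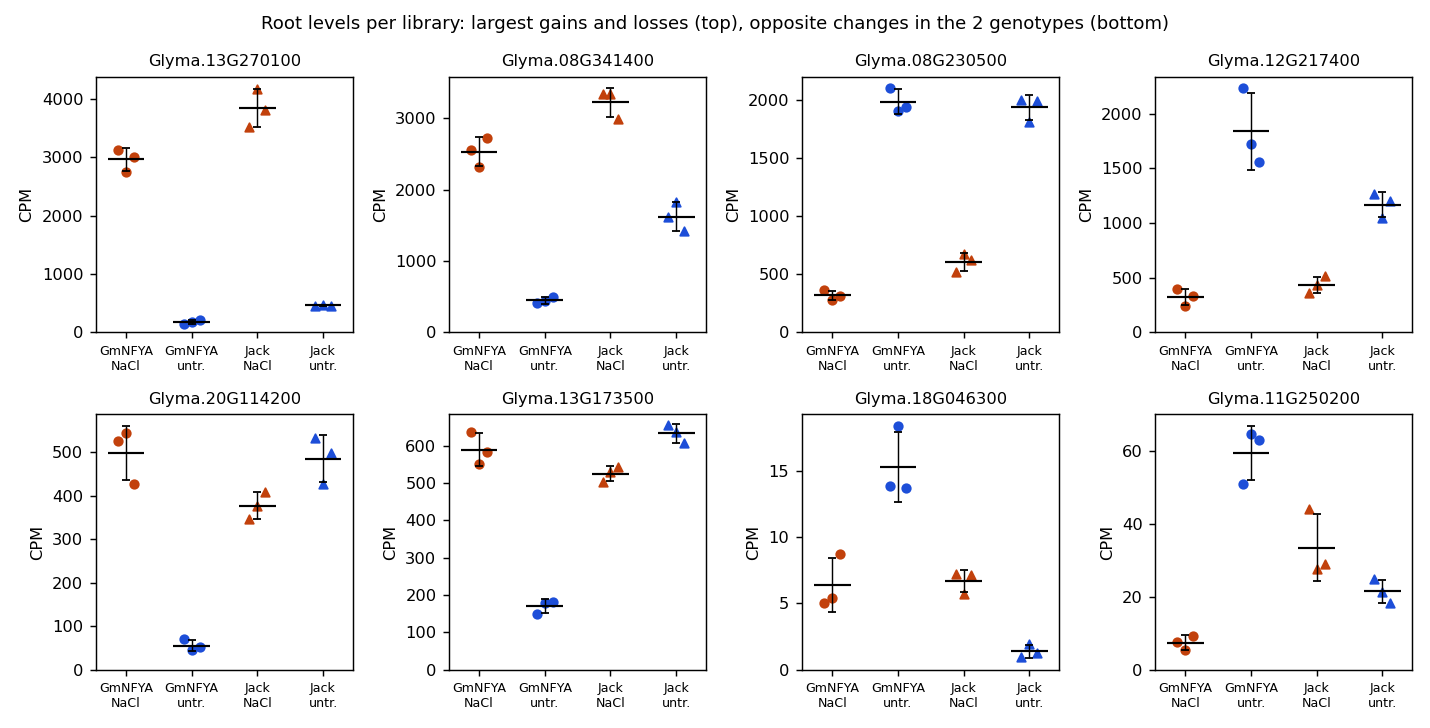
CPM per root library for the 4 IDs with the largest gain or loss of reads in GmNFYA roots (top row) and for 4 IDs that changed in opposite directions in the genotypes (bottom row). Circles are GmNFYA and triangles Jack libraries, orange is NaCl and blue untreated, and bars are the mean ± SD of 3 libraries. For Glyma.20G114200 the untreated GmNFYA libraries, at 44.9 to 70.4 CPM, lie below the other 3 groups.

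Some IDs went from no reads to many, or the reverse. In 76 tested IDs the 3 untreated GmNFYA libraries had 0 counts, and 56 of these were called as rises. Under NaCl 59 tested IDs had 0 counts, and 32 were called as falls. Over all tested IDs 28.6% rose and 28.1% fell. An ID with 0 counts in a group passes the low-count filter only through reads in other root groups, which favours a call. The IDs named here and below were picked for 0 counts in a group and high levels in the other. Their adjusted p-values therefore add no further support. Glyma.02G088400 had 13.0, 30.5 and 15.3 CPM with NaCl and 0 counts without. Its NaCl mean was 437-fold above a floor of 3 counts over the 3 untreated libraries (adjusted p = 7.31e-05 for the change). Glyma.01G225100 had 12.4, 16.4 and 7.35 CPM with NaCl and 0 counts without. Its NaCl mean was 269-fold above the same floor (adjusted p = 1.22e-05 for the change). Both differ from 0 in every NaCl library, with a spread of 2-fold or more between replicates. In untreated Jack roots the first was at 0.0881 ± 0.0652 CPM and the other at 2.15 ± 0.406 CPM.

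Going the other way, Glyma.17G177300 had 0 counts with NaCl and 7.72, 4.60 and 5.99 CPM without. Its untreated mean was 125-fold above a floor of 3 counts over the 3 NaCl libraries (adjusted p = 1.39e-07 for the change). Glyma.01G185000 had 0 counts with NaCl and 4.67, 3.92 and 4.30 CPM without. Its untreated mean was 87.7-fold above that floor (adjusted p = 1.49e-07 for the change). Both also had 0 counts in the 3 NaCl libraries of Jack roots, with 1.90 ± 0.638 and 1.54 ± 0.501 CPM in untreated Jack. The floor covers counting error in the group with 0 counts only, and not the spread between replicates of the other group.

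Neighbouring genes moved the same way more often than distant ones, which is described here without a test. IDs are numbered in order along a chromosome, so consecutive tested IDs are near neighbours. Where both of 2 adjacent IDs were called, 56.9% of 11820 pairs went the same way. Pairs 10 IDs apart agreed in 50.7% of cases and pairs 100 IDs apart in 49.7%. Among changes beyond 2-fold the share was 68.9% of 1245 adjacent pairs, 58.1% at a distance of 2, and 48.9% at a distance of 100. Adjacent genes can be near-identical tandem copies or can overlap, and the strand setting of the counting is not given in the sources used here, so reads may be split or shared between them.

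Runs of 3 or more neighbours that all rose beyond 2-fold numbered 87, with 285 IDs, and runs that all fell numbered 45, with 158 IDs. Over all IDs beyond 2-fold in GmNFYA roots, 93.4% of the 3053 rises and 92.3% of the 2887 falls were called in the same direction in Jack roots, so such a call is common for any of them. In leaves the same shares were 43.6% of 2495 and 36.3% of 2041 IDs tested there. The longest runs held 6 IDs, 2 of them runs of rises and 3 of falls. Only tested IDs count in a run, and untested IDs between them were passed over. From first to last ID, the runs of rises spanned 7 IDs on chromosome 6 and 11 on chromosome 8. Those of falls spanned 14 IDs on chromosome 2, 10 on chromosome 10 and 6 on chromosome 18. On chromosome 6, the 6 tested IDs from Glyma.06G319100 to Glyma.06G319700 rose 2.63- to 11.4-fold in GmNFYA roots. All 6 also rose in Jack roots, and for 1 of them the change differed between the genotypes. Of the 4 tested in leaves, 2 rose there. In roots Glyma.06G319100 had 7.06, 6.70 and 7.11 CPM with NaCl and 0.926, 1.49 and 1.60 CPM without. Glyma.06G319700 had 7.99, 10.1 and 12.2 CPM with NaCl and 0.750, 1.06 and 0.822 CPM without. In neither ID did the groups overlap.

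The run on chromosome 8, from Glyma.08G341100 to Glyma.08G342100, holds Glyma.08G341400 and fell into 2 stretches. Its first 4 IDs rose by log2 1.74 to 2.49 in GmNFYA roots, against changes of 0.16 to 0.99 in Jack roots, where only Glyma.08G341400 was called. For all 4 the difference between the genotypes passed the test, at log2 1.501 to 1.70. Its last 2 IDs rose by log2 6.88 and 7.36 in GmNFYA and by 6.29 and 6.12 in Jack, and for neither was a difference called. Glyma.08G341100 had 29.6, 29.5 and 24.3 CPM with NaCl and 7.81, 7.41 and 9.09 CPM without. In Jack roots it had 35.0, 23.6 and 21.9 CPM with NaCl and 23.0, 26.6 and 22.8 CPM without. For this ID the genotypes thus overlapped with NaCl and lay apart in untreated roots. Glyma.08G342100 had 43.0, 37.9 and 47.9 CPM with NaCl, against 0.176, 0.170 and 0.435 CPM without. That is a 165-fold rise (log2 7.36 ± 0.22, adjusted p = 6.06e-12 against the 2-fold minimum). Of the 4 IDs of the run tested in GmNFYA leaves, 0 rose and 1 fell there.

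The runs of falls lay on chromosomes 2, 10 and 18. On chromosome 2, the 6 tested IDs from Glyma.02G028000 to Glyma.02G029200 fell 3.32- to 36.1-fold, and all 6 also fell in Jack roots and in GmNFYA leaves. The first had 0.0490, 0.0993 and 0 CPM with NaCl, against 2.12, 1.96 and 1.89 CPM without. Its 36.1-fold fall (log2 -5.17) rests on 3 counts under NaCl, and became log2 -6.03 without NaCl replicate 2. The last had 9.51, 11.6 and 8.85 CPM with NaCl and 34.6, 40.9 and 41.5 CPM without. The call of the last ID, Glyma.02G029200, against the 2-fold minimum (adjusted p = 0.0136) was lost with DESeq2 (adjusted p = 0.0543) and without NaCl replicate 3 (adjusted p = 0.0521). On chromosome 18, 6 IDs from Glyma.18G269800 to Glyma.18G270300 fell 2.93- to 9.55-fold, and all 6 fell in Jack roots. The first had 7.99, 6.85 and 8.61 CPM with NaCl and 66.7, 49.2 and 53.3 CPM without, and the last 1.91, 1.44 and 0.919 CPM with NaCl and 17.0, 13.9 and 9.67 CPM without. No NaCl library reached the untreated range in any of these 4 IDs.

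On chromosome 10, the 6 tested IDs from Glyma.10G167700 to Glyma.10G168600 fell 2.56- to 18.6-fold, and all 6 fell in Jack roots. In the runs of falls only the first and last ID were rerun under the alternatives. Here both lost their call in some of them, and the inner IDs were not checked. Glyma.10G167700 had only 9 counts over the NaCl libraries and 43 over the untreated ones, and its call against the 2-fold minimum (adjusted p = 0.0396) was lost in 9 of 12 alternative analyses, among them each of the 6 that left out 1 library (adjusted p = 0.0509 to 0.137). Glyma.10G168600 had 2.01, 2.38 and 2.37 CPM with NaCl and 6.70, 6.13 and 6.86 CPM without, and lost its call with DESeq2 (adjusted p = 0.115) and without NaCl replicate 1 (adjusted p = 0.0697). In none of the 3 runs of falls was a difference from Jack roots called.

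**Figure D3:**
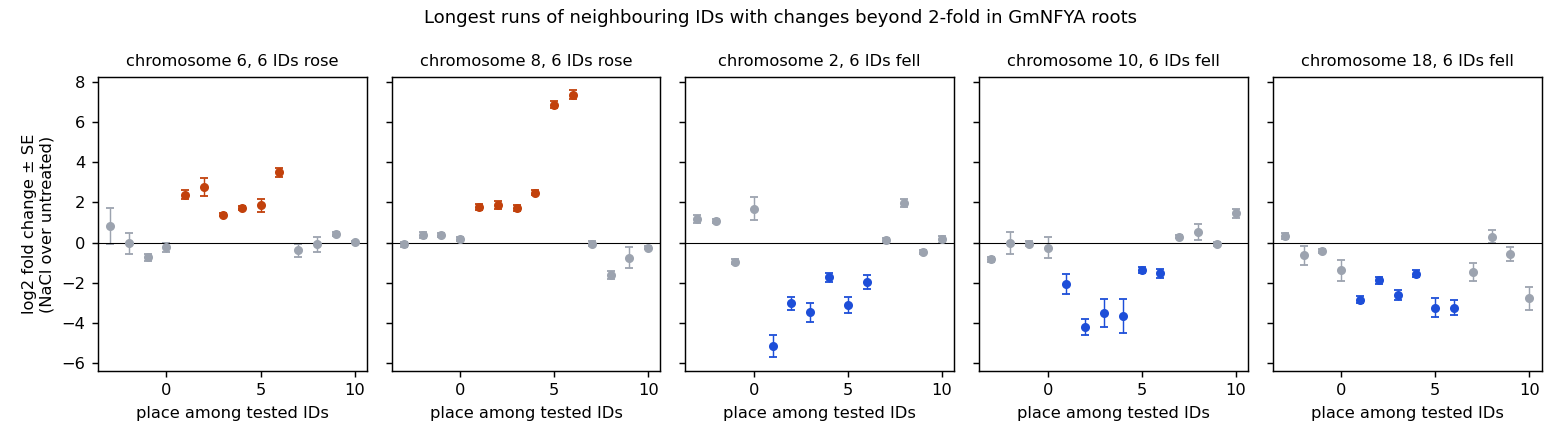
log2 fold change ± SE (NaCl over untreated, GmNFYA roots) of the tested IDs along the 5 longest runs and of their flanking IDs in grey, by place counted from the first ID of the run. In the chromosome 8 panel the last 2 IDs of the run stand at log2 6.88 and 7.36, above the other 4.

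The closest comparison is the same treatment in Jack roots, which shares no library with that in GmNFYA roots but takes its dispersions from the same fit. There 56.9% of IDs were called, 29% as rises and 27.9% as falls. As in GmNFYA roots, this balance depended on the scaling, with 8031 rises and 13453 falls in Jack under total gene reads. Of the 10410 IDs that rose in GmNFYA roots, 8138 (78.2%) also rose in Jack roots, which is 77.2% of the Jack list. Of the 10230 that fell, 7634 (74.6%) also fell in Jack, 75.2% of the Jack list. The median size of the log2 change over all tested IDs was 0.47 in GmNFYA and 0.49 in Jack roots. Across IDs, which are not independent replicates, Pearson's r was 0.85.

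The test of the difference, the genotype by NaCl interaction, picked out 3018 IDs (8.29%). The log2 change was shifted upward in GmNFYA for 1557 of them (4.28%) and downward for 1461 (4.01%). Under total gene reads these counts were 1840 and 1242. Of the 3053 IDs that rose beyond 2-fold in GmNFYA, 836 were among them, with a larger rise in GmNFYA for 720. Of the 2887 that fell beyond 2-fold, 351 were among them, with a larger fall in GmNFYA for 318. These IDs were chosen for their change in GmNFYA, which by itself favours a larger change there. Multiply aligned reads made up 5.19 to 5.88% in untreated and 5.38 to 5.61% in NaCl-treated GmNFYA roots. In Jack roots they made up 9.24 to 10.3% without and 6.11 to 6.63% with NaCl, so this share changed with NaCl mainly in Jack. The part of this in the interaction was not tested.

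Opposite changes were rare. Only 120 IDs that rose in GmNFYA roots fell in Jack roots (1.15%), and 113 that fell in GmNFYA rose in Jack (1.10%). For all of these the interaction was called, which calls in opposite directions nearly fix in advance. Among the 100 such rises and 98 such falls of mean log2 CPM 2 or more, the clearest by interaction p were Glyma.20G114200 and Glyma.13G173500 among rises in GmNFYA, and Glyma.18G046300 and Glyma.11G250200 among falls.

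Glyma.20G114200 had 526, 544 and 428 CPM in NaCl-treated GmNFYA roots, against 70.4, 44.9 and 51.2 CPM in untreated ones, an 8.99-fold rise (log2 3.17 ± 0.16, adjusted p = 3.64e-10). In Jack roots it had 347, 377 and 410 CPM with NaCl and 533, 426 and 499 CPM without, a 1.29-fold fall (adjusted p = 0.0464). The untreated GmNFYA libraries were the group that stood apart, while the other 3 groups lay between 347 and 544 CPM. The difference was log2 3.53 ± 0.22 (adjusted p = 3.12e-07). Glyma.13G173500 had the same form, with 636, 550 and 582 CPM in NaCl-treated and 150, 179 and 182 CPM in untreated GmNFYA roots. In Jack roots it had 503, 530 and 542 CPM with NaCl and 656, 635 and 606 CPM without. Its difference between the genotypes was log2 2.06 ± 0.14 (adjusted p = 4.24e-07).

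Glyma.18G046300 had 5.0, 5.41 and 8.70 CPM in NaCl-treated and 13.8, 18.4 and 13.7 CPM in untreated GmNFYA roots, a 2.4-fold fall (adjusted p = 0.000101) that did not pass the test against the 2-fold minimum (adjusted p = 0.187). In Jack roots it had 7.19, 5.72 and 7.16 CPM with NaCl and 0.978, 1.94 and 1.29 CPM without, a 4.81-fold rise. The NaCl groups of the genotypes overlapped and the untreated groups lay far apart, with a difference in change of log2 -3.53 ± 0.34 (adjusted p = 2.13e-05). Glyma.11G250200 had 7.50, 5.41 and 9.38 CPM in NaCl-treated and 50.9, 64.7 and 62.9 CPM in untreated GmNFYA roots, a 7.99-fold fall. In Jack roots it had 44.1, 27.5 and 29.0 CPM with NaCl and 24.9, 21.2 and 18.4 CPM without (difference log2 -3.65 ± 0.31, adjusted p = 4.36e-05). For this ID the genotypes differed both with and without NaCl.

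**Figure D4:**
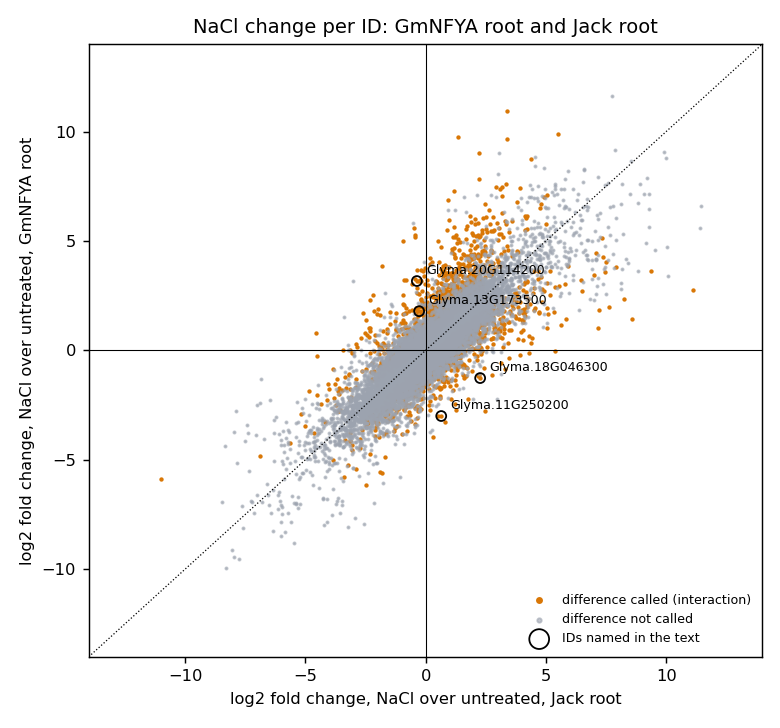
log2 fold change with NaCl in GmNFYA roots (vertical) against that in Jack roots (horizontal), 1 point per tested ID. Orange points are the 3018 IDs whose change differed between the genotypes, grey points the others, circles the 4 named IDs, and the dotted line marks equal change. Most points lie along that line, and the circled IDs lie in the quadrants of opposite change.

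The ID that stands apart in the transgenic line, Glyma.02G303800, was also higher under NaCl in GmNFYA roots. It had 552, 505 and 536 CPM with NaCl and 394, 338 and 364 CPM without, with no overlap, a 1.45-fold rise (log2 0.54 ± 0.16, adjusted p = 0.00867). Jack roots had 6.04 ± 2.25 CPM with NaCl and 1.36 ± 0.376 CPM without, and the change was smaller in GmNFYA on the log2 scale (difference -1.62 ± 0.31, adjusted p = 0.0048). Whether this ID is the GmNFYA gene of the labels was not established here.

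The response in leaves of the same line, which share no library with its roots, overlapped that of roots in part. Of 32699 IDs tested in both tissues, 36% were called with NaCl in GmNFYA leaves. Of the 9448 of these IDs that rose in GmNFYA roots, 3188 (33.7%) also rose in leaves, 1248 (13.2%) fell there, and 5012 (53.0%) were not called. Of the 8840 that fell in roots, 2404 (27.2%) also fell in leaves, 775 (8.77%) rose and 5661 (64.0%) were not called. The shared IDs made up 53.4% of the rises and 41.5% of the falls in leaves. Over these IDs the median size of the log2 change was 0.43 in roots and 0.34 in leaves, and Pearson's r across IDs was 0.34, as a description.

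The tissue by NaCl interaction within the GmNFYA line picked out 14897 of 38221 IDs (39%). The log2 change was shifted upward in roots for 6716 (17.6%) and downward for 8181 (21.4%). RLE size factors gave 7595 upward and 7153 downward shifts, and total gene reads gave 5476 and 10711. The balance also turned with DESeq2 (7765 and 7355) and without untreated leaf replicate 2 (7252 and 6147). Among IDs that changed in opposite directions in the 2 tissues, with a called interaction and mean log2 CPM of 2 or more, 1043 rose and 659 fell in roots.

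Glyma.03G247000 had 217, 211 and 206 CPM in NaCl-treated and 2.56, 2.68 and 2.66 CPM in untreated GmNFYA roots, an 80.0-fold rise (log2 6.32 ± 0.28, adjusted p = 4.74e-09). Replicates were unusually close in both groups. In leaves of the line it had 2.73, 2.67 and 3.17 CPM with NaCl and 8.12, 13.9 and 11.5 CPM without, a 3.89-fold fall. The changes differed by log2 8.24 ± 0.22 (adjusted p = 2.13e-12). Its rise in Jack roots was 73.7-fold, and no difference between the genotypes was called (log2 0.12 ± 0.39, adjusted p = 0.894).

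Glyma.20G210100 had 105, 111 and 87.3 CPM in NaCl-treated and 3.79, 4.17 and 4.01 CPM in untreated GmNFYA roots, a 25.3-fold rise. In leaves it had 7.89, 10.2 and 8.47 CPM with NaCl and 15.6, 16.6 and 15.0 CPM without (difference log2 5.45 ± 0.17, adjusted p = 3.33e-12). Its rise in Jack roots was 4.19-fold, to 163 ± 19.7 CPM against 38.8 ± 3.08 CPM untreated. The rise was larger in GmNFYA by log2 2.59 ± 0.16 (adjusted p = 2.45e-07).

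Glyma.06G123200 had 2.21, 1.59 and 1.55 CPM in NaCl-treated and 52.9, 45.9 and 52.0 CPM in untreated GmNFYA roots, a 28.1-fold fall. In leaves it had 10.7, 11.4 and 11.3 CPM with NaCl and 3.94, 4.48 and 4.04 CPM without, a 2.68-fold rise. The changes differed by log2 -6.28 ± 0.18 (adjusted p = 2.13e-12). Jack roots had 0.0681 ± 0.0597 CPM with NaCl and 9.33 ± 1.61 CPM without, so that the fall was smaller in GmNFYA on the log2 scale (difference 2.07 ± 0.55, adjusted p = 0.0274). Glyma.11G238800 had 71.9, 66.5 and 84.0 CPM in NaCl-treated and 263, 316 and 265 CPM in untreated roots, against 238, 243 and 248 CPM in NaCl-treated and 78.3, 66.7 and 76.4 CPM in untreated leaves (difference log2 -3.68 ± 0.15, adjusted p = 9.96e-11). In CPM its NaCl roots lay near its untreated leaves, and its untreated roots nearer its NaCl leaves. Root and leaf CPM were scaled in separate fits, and levels were not tested across the tissues. The fall of Glyma.11G238800 was 3.79-fold in GmNFYA and 2.17-fold in Jack roots (difference log2 -0.81 ± 0.15, adjusted p = 0.00281).

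**Figure D5:**
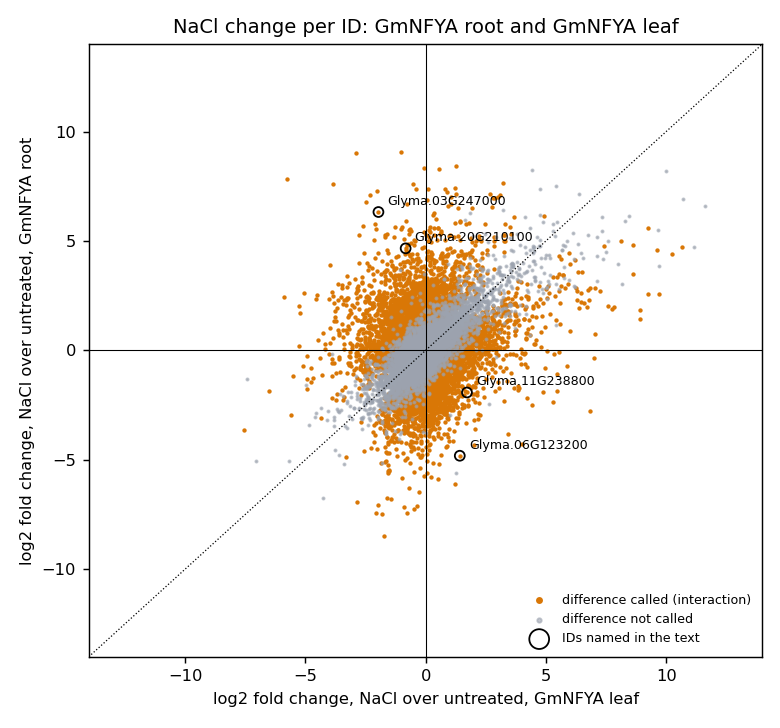
log2 fold change with NaCl in GmNFYA roots (vertical) against that in GmNFYA leaves (horizontal), 1 point per ID tested in both tissues. Orange points are IDs whose change differed between the tissues, grey points the others, and circles the 4 named IDs. The circled IDs lie in the quadrants of opposite change, and the median size of change over these IDs was 0.43 in roots and 0.34 in leaves.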

How the data were processed

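The authors deposited whole-number read counts per gene, not normalized, 1 table for 12 root and 1 for 12 leaf libraries. Per the submitters' processing notes, the tools included HISAT2, featureCounts and DESeq2, with no version or order. The rows for unassigned reads are named in the style of htseq-count, however, so the tool that made these counts was not settled here. The build, annotation and strand setting were not given in the sources used here. The 5 rows for unassigned reads stayed out of library sizes and tests. They held 23.2 ± 0.0456% of counted reads in NaCl-treated and 24.5 ± 0.481% in untreated GmNFYA roots. None of the IDs matched the RefSeq gene table of assembly Glycine_max_v4.0 (0 matches), so gene lists by description, the checks of cell type markers and sequences could not be used.

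edgeR 4.0.16 in R 4.3.3 was run on all 12 root libraries (filterByExpr with a minimum count of 10, 36390 IDs holding 99.9% of gene counts, TMM factors of 0.899 to 1.1, robust dispersions, quasi-likelihood F tests of group means, calls at a Benjamini-Hochberg adjusted p under 0.05). SEs come from the log2 fold change over the root of its F statistic. glmTreat tested against a log2 change of 1. The tissue interaction was fitted over the 12 GmNFYA libraries, with IDs joined by their number (38221 IDs). Named IDs were picked by rule: the 2 largest gains and losses of CPM, the 2 clearest opposite changes per direction against Jack roots and against leaves, the 2 steady IDs with most reads, the ends of the longest runs with ties kept, Glyma.02G303800, and 2 IDs with 0 counts in each group. The rules and comparisons were chosen with earlier results of these data known. In data simulated from these libraries (36390 IDs), NaCl in GmNFYA roots recovered 90 of 100 2-fold and 100 of 100 4-fold changes, with 13 false calls among 203. The 2-fold minimum test recovered 85 of 100 4-fold changes with 0 false calls. The genotype interaction recovered 70 of 100 2-fold and 96 of 100 4-fold changes with 15 false calls among 181, and the tissue interaction (38221 IDs) 67 and 98 with 6 among 171. For each comparison 100 IDs were changed 2-fold and 100 were changed 4-fold, whereas 56.7% of IDs were called in the GmNFYA root data. Recovery and false calls under so broad a change were not tested. The changed IDs were drawn only from those above a minimum level in untreated GmNFYA roots. Recovery among IDs with few reads was therefore not tested. No 2 replicate libraries agreed within counting noise (chi-square per degree of freedom of 4.87 to 9.47). Alternatives were DESeq2 1.42.0, RLE factors, total gene counts, other low-count filters, only the 2 compared groups, a replicate block, and leaving out each library.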

Additional observations from a re-analysis of the deposited data

Results flagged for a closer look

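For 14 of the 29 named IDs the NaCl change differed between GmNFYA and Jack roots by the interaction test, which called 8.29% of all tested IDs, with adjusted p of 2.45e-07 to 0.0274. As log2 change in GmNFYA roots minus that in Jack roots, the positive differences were 0.998 for Glyma.13G270100, 1.501 for Glyma.08G341400, 3.53 for Glyma.20G114200, 2.06 for Glyma.13G173500, 2.59 for Glyma.20G210100, 2.07 for Glyma.06G123200, 1.62 for Glyma.08G341100 and 7.54 for Glyma.01G225100. The negative ones were -0.96 for Glyma.08G230500, -1.08 for Glyma.12G217400, -3.53 for Glyma.18G046300, -3.65 for Glyma.11G250200, -0.81 for Glyma.11G238800 and -1.62 for Glyma.02G303800. The value for Glyma.01G225100 rests on 0 counts in untreated GmNFYA roots, so its size depends on the prior count.

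For 18 of the 29 the change differed between roots and leaves of the GmNFYA line, where 39% of all IDs were called, with adjusted p of 2.13e-12 to 0.0163. As log2 change in roots minus that in leaves, the positive differences were 3.83 for Glyma.13G270100, 6.36 for Glyma.08G341400, 3.19 for Glyma.20G114200, 2.67 for Glyma.13G173500, 8.24 for Glyma.03G247000, 5.45 for Glyma.20G210100, 1.90 for Glyma.08G341100, 6.53 for Glyma.08G342100 and 8.51 for Glyma.01G225100. The negative ones were -2.56 for Glyma.12G217400, -2.05 for Glyma.18G046300, -6.28 for Glyma.06G123200, -3.68 for Glyma.11G238800, -0.94 for Glyma.14G061500, -2.06 for Glyma.06G319700, -0.84 for Glyma.02G029200, -0.90 for Glyma.10G168600 and -1.56 for Glyma.18G270300. Of these, Glyma.08G341400 was close to 0 CPM in leaves. Glyma.20G114200 was also low there, at 0.679 ± 0.0128 CPM with NaCl and 0.718 ± 0.166 CPM without. Glyma.01G225100 had too few reads to be tested in leaves alone and 0 counts in untreated roots, so its difference (SE 2.47) depends on the prior count and measures no size. The 8 IDs named for opposite changes had been picked by these same tests, so these counts say nothing about the named IDs as a set.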

How the results depend on the processing

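Recomputed under 13 alternatives, the count of IDs called for NaCl in GmNFYA roots lay between 18599 and 21039 and that beyond 2-fold between 4686 (DESeq2) and 6045 (no low-count filter). Leaving out 1 library at a time gave 18599 to 19802 and 5415 to 5824. The genotype interaction lay between 2070 and 4212, the highest without Jack NaCl replicate 1 and the lowest without GmNFYA NaCl replicate 1, and its balance of more positive and more negative changes turned without that Jack library (1972 and 2240), with DESeq2 (1896 and 1915) and with the replicate block (1642 and 1705). The tissue interaction lay between 13383 and 16187, and between 13383 and 14794 with 1 library left out. All 147 alternative values of 11 counts were within 1.5 times the reported count. Of 416 alternative values for 29 named IDs, 402 were counted as unchanged. That meant the same direction and side of the threshold, or, for the 2 steady IDs, a shift of less than 1 SE. Whether the intervals of the steady IDs stayed within 1.5-fold was not rechecked for each. The exceptions were the ends of 2 runs of falls (Glyma.10G167700 in 9 alternatives, with adjusted p of up to 0.534 with DESeq2, Glyma.10G168600 and Glyma.02G029200 in 2 each, DESeq2 among them) and Glyma.14G061500, which moved to log2 -0.23 under total gene counts. Glyma.10G167700 gave no value under the CPM filter. By the correlation of deviations from group means, the replicate numbers did not pair the GmNFYA root libraries (0.0926, -0.00077 and -0.0745), and of the Jack root pairs 0.0789 was under 0.1 while 0.163 and 0.195 were above it. Every Jack root library correlated best with its own number, and not every GmNFYA root library did. With the replicate block 20550 IDs were called for NaCl in GmNFYA roots, 5980 beyond 2-fold, 3347 for the genotype and 14305 for the tissue interaction.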

Other observations

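Rises and falls were found at like shares on every chromosome. Across the 20 chromosomes stated in the IDs, 27.3 to 30.6% of tested IDs rose and 26.3 to 30.4% fell, and the median log2 fold change lay between -0.04 and 0.05. Beyond 2-fold, rises ranged over 7.01 to 9.72% and falls over 6.51 to 9.14% of a chromosome's IDs. Of 194 tested IDs on unplaced sequence, 57 rose and 47 fell. The 426 IDs with the prefix ENSRNA had 0 counts in all 6 GmNFYA root libraries, and 12621 of the 57105 IDs had no count there.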
